A study of Mus musculus with 6 samples.

Results

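The genes described here are 40 markers of adipose progenitor cells and fibroblasts, examined in bulk RNA-Seq of inguinal white adipose tissue (iWAT). They were taken by symbol from the count table, and the row with the highest total count stands for a symbol that has several rows. Of the 40 members, among 19509 symbols in all, 36 had a row and 32 had enough counts to be tested. Collagens were left out.

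White adipose tissue holds a stromal compartment in which new adipocytes arise. Interstitial progenitors, marked by *Dpp4* and *Pi16*, lie in the connective tissue around the fat lobules and give rise to committed preadipocytes, which are marked by *Icam1* or *F3*. Both share *Pdgfra* and other mesenchymal surface proteins with fibroblasts, which secrete the proteoglycans, fibulins, fibrillins and other proteins of the matrix.

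The libraries came from mice on a C57BL/6 background fed a Western diet for 12 weeks, 3 labelled *Lexis*-AdWT and 3 labelled *Lexis*-AdKO. *Lexis*-AdKO mice carry a floxed allele of the long noncoding RNA *Lexis* and Cre under the adiponectin promoter (*Adipoq*-cre), and *Lexis*-AdWT mice were their littermate controls. This Cre is active in adipocytes, whereas most of these 40 genes mark stromal cells, in which recombination is not directed, and some, such as *Zfp423*, also act in adipocytes. The age and sex of these 6 mice were not given in the sources used here. The comparison asks whether genes of the progenitor and fibroblast compartment differed in iWAT when *Lexis* was targeted in adipocytes. In whole tissue, fewer cells of a type and less RNA per cell cannot be told apart.

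The libraries held between 14470542 and 17882713 counts, and levels are given in CPM, counts scaled by TMM and set per 1000000 counts of a library. The row of the targeted gene, *4930412L05Rik* (ENSMUSG00000087192.1, NCBIM37 chromosome 4, 53217938 to 53230729, minus strand), was at 8, 9 and 8 counts in AdWT and 21, 11 and 13 counts in AdKO. Both RefSeq promoters listed for *Lexis1* lie just upstream of this gene on the same strand. It was therefore not lower in the libraries labelled AdKO (log2 fold change 0.87 ± 0.38 SE, adjusted *p* = 0.851, edgeR), and which of its bases the allele removes was not given in the sources used here. All directions below rest on the labels. Skeletal muscle genes also separated the groups, with a summed level of 35.6, 178 and 19.8 CPM in AdWT and between 6.32 and 7.29 CPM in AdKO. Of 14 such genes, 11 had a row and *Myh4* and *Tnnt3* were at 0 throughout. All 7 that were tested had an unadjusted *p* under 0.05 and were lower in AdKO. The part of muscle in the results below was not tested.

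No member passed the adjusted threshold of 0.05 in edgeR's quasi-likelihood test, where the smallest adjusted *p* among members was 0.817 and 0% of 9872 rows were called. Before adjustment, 6 of the 32 members had *p* under 0.05. *Osr1*, *Sned1*, *Ahnak2*, *Tspan11* and *Postn* were higher in AdKO and *Zfp423* was lower. That is 18.8% of the members tested, beside 5.73% of all rows (2.76% higher and 2.98% lower). With a fold change over 1.5 added, 3 members passed, beside 2.16% of all rows. The list was drawn up with earlier results of these data known, so this share is not independent evidence about progenitors. The groups did not overlap for 6 members that were higher in AdKO and 1 that was lower, beside 6.16% and 5.72% of all rows. In all, 23 members were higher and 9 lower (27 and 5 with scaling by library size only, which moved the median of all rows to 0.05), and their median log2 fold change was 0.17, beside 0.01 over all rows tested. Leaving out the AdKO library of replicate 1 took this median to 0.10. For 17 members leaving out 1 library moved the log2 fold change by over 1.5 times and for 9 it turned the direction, which leaves the 6 members named above.

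**Figure D1:**
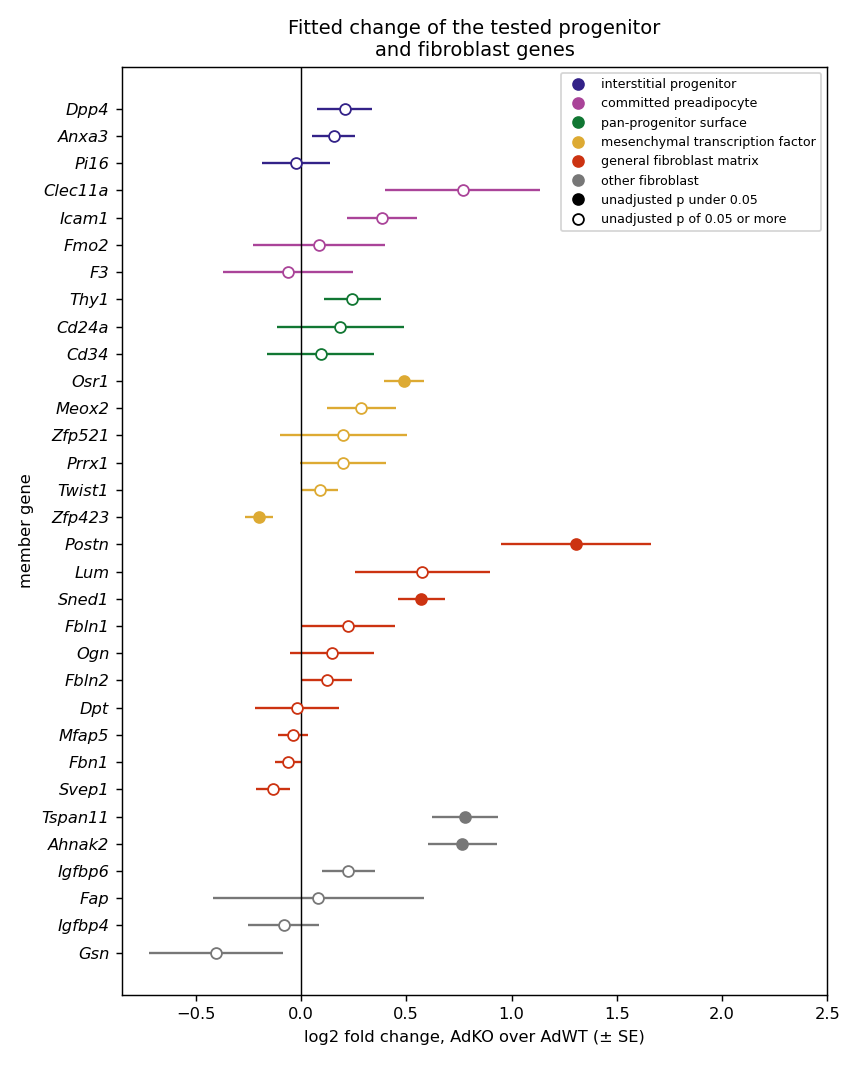
Log2 fold change of AdKO over AdWT (x axis) with its standard error for the 32 members tested (y axis), coloured by class and ordered by size within each class. Filled points have an unadjusted *p* under 0.05, and they range from 1.31 for *Postn* to -0.20 for *Zfp423*.

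The interstitial progenitor genes did not separate the groups as a class. *Dpp4*, a cell-surface dipeptidyl peptidase, was at 16.7, 15.8 and 15.4 CPM in AdWT and 21.4, 16.5 and 17.5 CPM in AdKO. The AdKO library of replicate 1 was the highest and the groups overlapped, with a log2 fold change of 0.21 ± 0.13 SE (adjusted *p* = 0.853), which was 0.090 without that library. *Pi16*, a peptidase inhibitor and the other anchor of this class, was at 95.7, 75.9 and 73.7 CPM in AdWT and 98.1, 77.1 and 66.3 CPM in AdKO. Its highest value and its lowest were both AdKO libraries, and its log2 fold change was -0.02 ± 0.16 SE (adjusted *p* = 0.983). *Anxa3*, which encodes a calcium-dependent phospholipid-binding annexin, ranged from 22.7 to 23.6 CPM in AdWT and from 24.2 to 28.7 CPM in AdKO. The groups thus did not overlap in this row, but its log2 fold change of 0.16 had an unadjusted *p* of 0.171. Another *Anxa3* row, with 1328 counts in all beside 2282, had overlapping groups and a log2 fold change of -0.03. With the rows summed, the log2 fold change of *Anxa3* was 0.088. *Cd55*, the other member of this class, was not analysed here. The median log2 fold change of the 3 genes was 0.16, and their summed level was 121 ± 13.1 CPM in AdWT and 125 ± 20.9 CPM in AdKO (SD, n = 3), where *Pi16* made up 66.0% of the sum. The median was 0.073 without the AdKO library of replicate 1 and 0.088 with the rows of a symbol summed.

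Committed preadipocyte genes gave a less even picture. *Icam1*, an adhesion molecule that binds leukocyte integrins, was at 48.6, 31.3 and 36.3 CPM in AdWT and 45.5, 55.1 and 51.0 CPM in AdKO. The AdWT library of replicate 1 lay among the AdKO libraries, and the log2 fold change was 0.39 ± 0.17 SE (adjusted *p* = 0.851), its unadjusted *p* being just above the threshold. The unadjusted *p* of *Icam1* was under 0.05 in 5 of 16 other analyses. Leaving out 1 library gave it log2 fold changes from 0.25 to 0.58. *F3*, which encodes tissue factor, the starter of the extrinsic coagulation cascade, was at 32.0, 63.4 and 61.1 CPM in AdWT and 63.0, 33.0 and 54.1 CPM in AdKO. Each group thus held 1 library well below the others, and the log2 fold change was -0.06 ± 0.31 SE (adjusted *p* = 0.981). *Clec11a*, a secreted C-type lectin growth factor, had 20, 11 and 9 counts in AdWT and 16, 25 and 27 counts in AdKO. Its groups overlapped, and its log2 fold change of 0.77 ± 0.37 SE (adjusted *p* = 0.851) rested on few reads. *Fmo2*, a flavin-containing monooxygenase, ranged from 1.55 to 3.21 CPM over the 6 libraries, with a log2 fold change of 0.09. The class had a median of 0.24 and a summed level of 94.0 ± 7.92 CPM in AdWT and 104 ± 10.8 CPM in AdKO. Leaving out the AdWT library of replicate 1, which was high in *Icam1* and low in *F3*, moved this median to 0.49, and a filter of at least 10 counts in every library, under which *Clec11a* was not tested, to 0.093.

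**Figure D2:**
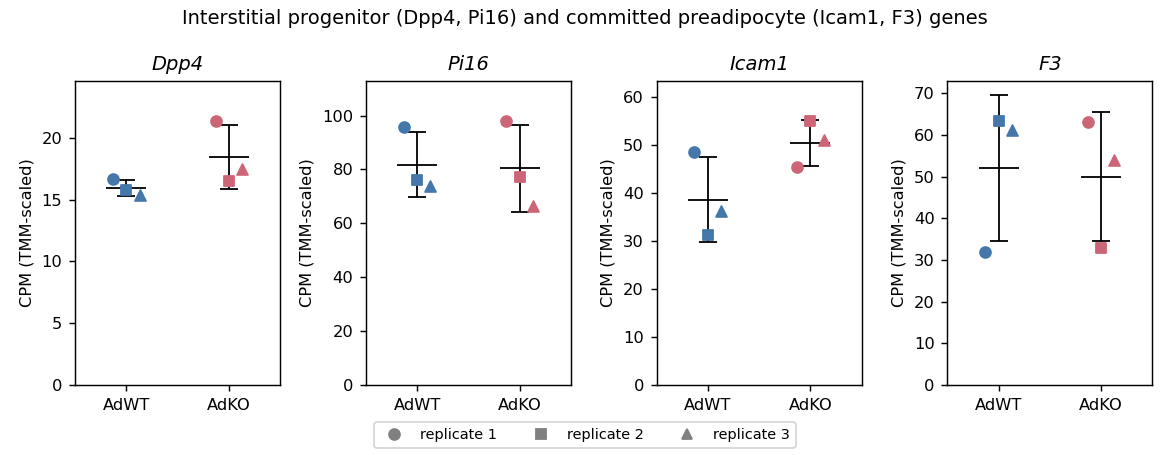
TMM-scaled CPM of *Dpp4*, *Pi16*, *Icam1* and *F3* (y axes, from 0) in the 3 AdWT and 3 AdKO libraries (x axes), where marker shapes give the replicate number and bars the mean and SD. The groups overlap in all 4 panels, and *F3* has 1 low library in each group.

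The balance between the classes was compared as ratios within each library, which do not depend on the scaling. The ratio of *Pi16* to *F3* was 2.99, 1.20 and 1.21 in AdWT and 1.56, 2.34 and 1.23 in AdKO, and the mean log2 ratio differed by 0.01 (two-sided exact permutation *p* = 0.8). The ratio of *Dpp4* to *Icam1* ranged from 0.344 to 0.505 in AdWT and from 0.299 to 0.470 in AdKO (difference -0.20, exact permutation *p* = 0.4). The ratio of *Pi16* to *Icam1* was also lower on average in AdKO, by -0.44 on the log2 scale, with overlapping groups (exact permutation *p* = 0.3). Within the interstitial class, the ratio of *Dpp4* to *Pi16* was 0.174, 0.208 and 0.209 in AdWT and 0.218, 0.214 and 0.264 in AdKO. Those groups did not overlap, with an exact permutation *p* of 0.1, the smallest that 3 against 3 libraries can give. It was 1 of 6 ratios computed, the others being *Dpp4* to *F3* and *Icam1* to *F3*, whose groups overlapped. The ratio of *Dpp4* to *F3* was higher on average in AdKO, by 0.25 on the log2 scale (exact permutation *p* = 0.6). That of *Icam1* to *F3* was higher by 0.45 (exact permutation *p* = 0.5).

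Surface genes shared by most adipose progenitors varied as much within the groups as between them. *Pdgfra*, the receptor that defines these cells, had only 7, 6 and 10 counts in AdWT and 10, 8 and 13 counts in AdKO. That is 0.495 ± 0.158 CPM and 0.665 ± 0.129 CPM (SD, n = 3), not far above the 0.179 to 0.206 CPM that a count of 0 allows, and the gene was not tested. *Pdgfra* has 5 rows in the table, of which another held 2, 7 and 8 counts in AdWT and 12, 8 and 7 counts in AdKO. With its rows summed, it had 9, 13 and 18 counts in AdWT and 22, 16 and 20 counts in AdKO, and a log2 fold change of 0.55 ± 0.34 SE (adjusted *p* = 0.838). *Thy1*, a GPI-anchored glycoprotein, had the highest level of this class, from 82.4 to 115 CPM in AdWT and from 108 to 132 CPM in AdKO, with a log2 fold change of 0.24. *Cd34*, a sialomucin of progenitors and vessels, and *Cd24a*, a small surface glycoprotein of early adipocyte precursors, had log2 fold changes of 0.09 and 0.19 with overlapping groups. *Cd24a* ranged from 10.8 to 20.3 CPM within AdWT alone. *Ly6a* was not analysed here.

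Among the mesenchymal transcription factors, *Osr1* and *Zfp423* stood on opposite sides. *Osr1* (ENSMUSG00000048387.7, NCBIM37 chromosome 12, 9581248 to 9588305), a zinc finger factor of mesenchymal progenitors, was at 41.5, 42.3 and 39.3 CPM in AdWT and 64.3, 56.2 and 52.4 CPM in AdKO. Every AdKO library lay above every AdWT library, and the log2 fold change was 0.49 ± 0.10 SE (unadjusted *p* = 0.00117, adjusted *p* = 0.817). *Zfp423* (ENSMUSG00000045333.9, NCBIM37 chromosome 8, 90185709 to 90483494), which acts in preadipocyte commitment and in keeping the identity of white adipocytes, was at 313, 330 and 315 CPM in AdWT and 266, 292 and 275 CPM in AdKO. Every AdKO library lay below the AdWT libraries, by a log2 fold change of -0.20 ± 0.07 SE (unadjusted *p* = 0.0178, adjusted *p* = 0.851). The unadjusted *p* of *Zfp423* was above 0.05 without the AdWT library of replicate 2, the AdKO library of replicate 1 or the AdKO library of replicate 3, and with scaling by library size only. The homeobox factors *Meox2* and *Prrx1*, the helix-loop-helix factor *Twist1* and *Zfp521*, a zinc finger factor related to *Zfp423*, had log2 fold changes of 0.29, 0.20, 0.09 and 0.20 with overlapping groups. *Ebf3* was at 0 in every library, and *Tcf21* was not analysed here.

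Matrix genes covered a wide range of levels, and 8 of the 10 tested had an unadjusted *p* of 0.05 or more. *Dpt*, the collagen-binding protein dermatopontin, made up 43.1% of the summed level of all members. It was at 2381, 2904 and 4036 CPM in AdWT and 3349, 3230 and 2626 CPM in AdKO, so the AdWT libraries alone spanned the whole range, and its log2 fold change was -0.02 ± 0.20 SE. *Lum*, the proteoglycan lumican, was at 158 CPM in the AdWT library of replicate 3 and between 361 and 560 CPM in the other 5, with a log2 fold change of 0.58 ± 0.32 SE (unadjusted *p* = 0.111). Without that library the log2 fold change was 0.27, and the unadjusted *p* of *Lum* was under 0.05 in 4 of 16 other analyses (0.0436 in DESeq2 with its defaults and 0.0177 with a replicate block). *Svep1*, a large adhesion protein of the matrix, was at 504, 552 and 551 CPM in AdWT and 526, 483 and 459 CPM in AdKO. Its log2 fold change of -0.13 ± 0.08 SE was among the lowest of the members (adjusted *p* = 0.853). The microfibril genes *Fbn1* and *Mfap5* had the narrowest spread relative to their level, from 255 to 283 CPM and from 94.9 to 108 CPM over the 6 libraries. Their log2 fold changes were -0.06 and -0.04. The fibulins *Fbln1* and *Fbln2* and the proteoglycan *Ogn* had means between 3.33 and 13.1 CPM in both groups and log2 fold changes of 0.22, 0.12 and 0.15. *Mfap4* had 10 counts in all and was not tested, and *Dcn* was not analysed here.

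*Sned1* and *Postn* were the matrix genes with an unadjusted *p* under 0.05. *Sned1* (ENSMUSG00000047793.7, NCBIM37 chromosome 1, 95132418 to 95197642), a matrix glycoprotein with sushi, nidogen and EGF-like domains, was at 44.8, 37.8 and 34.4 CPM in AdWT and 55.3, 58.4 and 60.3 CPM in AdKO. The groups did not overlap, with a log2 fold change of 0.57 ± 0.11 SE (unadjusted *p* = 0.00103, adjusted *p* = 0.817). *Postn*, the matricellular protein periostin, had 7, 7 and 5 counts in AdWT and 16, 11 and 20 counts in AdKO, for a log2 fold change of 1.31 ± 0.36 SE (adjusted *p* = 0.847). A second *Postn* row, with 14, 14 and 6 counts in AdWT and 11, 5 and 13 counts in AdKO, had a log2 fold change of -0.21, and the sum of the rows had no *p* under 0.05. The direction of *Postn* was therefore not shared by its rows.

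Of the remaining fibroblast genes, *Ahnak2* and *Tspan11* differed between the groups before adjustment. *Ahnak2* (ENSMUSG00000072812.4, NCBIM37 chromosome 12, 114010405 to 114040868), a very large scaffold protein of the AHNAK family, was at 55.5, 40.7 and 34.3 CPM in AdWT and 76.3, 73.9 and 71.6 CPM in AdKO. Its AdKO libraries lay within a few CPM of each other and above all AdWT libraries, with a log2 fold change of 0.77 ± 0.16 SE (unadjusted *p* = 0.00199, adjusted *p* = 0.817). Its second row, from 41 to 67 counts in AdWT and from 72 to 133 counts in AdKO, had a log2 fold change of 0.95 ± 0.25 SE. *Tspan11* (ENSMUSG00000030351.4, NCBIM37 chromosome 6, 127837607 to 127903049), a tetraspanin of the cell membrane, was at 7.07, 7.83 and 5.69 CPM in AdWT and 12.3, 11.6 and 11.5 CPM in AdKO. The groups were again apart, with a log2 fold change of 0.78 ± 0.16 SE (unadjusted *p* = 0.00147, adjusted *p* = 0.817). *Gsn*, the actin-severing protein gelsolin, had 22, 14 and 24 counts in AdWT and 16, 14 and 15 counts in AdKO. Its log2 fold change of -0.40 ± 0.32 SE was the lowest of all members (adjusted *p* = 0.859), and its groups overlapped. *Igfbp4*, a binding protein of insulin-like growth factors, made up 87.0% of the summed level of this class, and it and *Igfbp6* had log2 fold changes of -0.08 and 0.22. *Fap*, a serine protease of activated fibroblasts, had between 10 and 40 counts, and *Sema3e* was at 0 in every library.

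**Figure D3:**
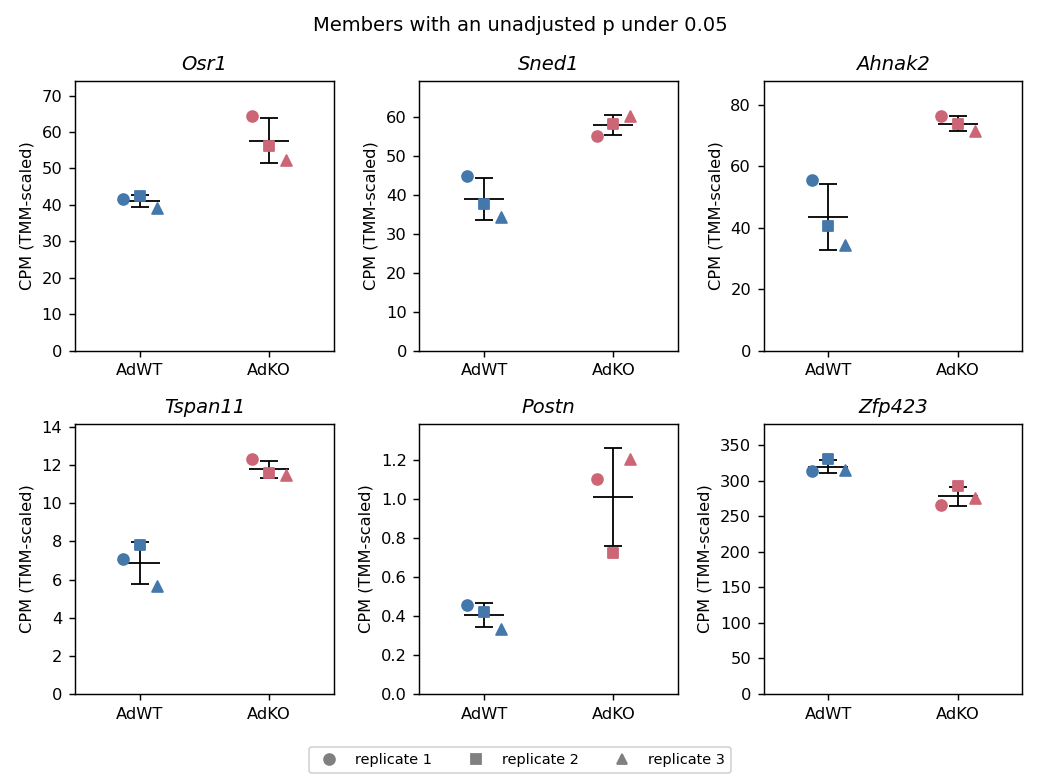
TMM-scaled CPM of the 6 members with an unadjusted *p* under 0.05 (y axes, from 0) in AdWT and AdKO libraries (x axes), with marker shapes for the replicate number and bars for the mean and SD. The groups are apart in every panel, *Zfp423* being the one that is lower in AdKO, and *Postn* lies between 0.335 and 1.20 CPM.

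*Osr1*, *Sned1*, *Ahnak2* and *Tspan11* had an unadjusted *p* under 0.05 in all 16 other analyses run, and *Postn* in 14 of 15. DESeq2 with its defaults, which called 0.384% of the rows to which it gave an adjusted *p*, called 3 members. They were *Ahnak2* (log2 fold change 0.75 ± 0.18 SE, adjusted *p* = 0.0162), *Sned1* (0.56 ± 0.14 SE, adjusted *p* = 0.0292) and *Tspan11* (0.76 ± 0.20 SE, adjusted *p* = 0.0498). *Osr1* did not pass there (adjusted *p* = 0.0693). Without Cook's cutoff and independent filtering DESeq2 called only *Ahnak2*.

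The sequence upstream of 3 members that were higher in AdKO before adjustment (*Sned1*, *Tspan11* and *Ahnak2*) and of *Zfp423*, which was lower, is shown so that it can be compared. Of the 40 members, 29 had a promoter in the RefSeq table (GRCm38.p6), *Osr1* not being among them. The 250 bases before the RefSeq start of *Sned1*, *Tspan11*, *Ahnak2* and *Zfp423* matched NCBIM37 exactly and once, at chr1:95132224-95132473 (plus strand), chr6:127837390-127837639 (plus), chr12:114033954-114034203 (minus) and chr8:90483495-90483744 (minus). That of *Zfp423* is the window at the start of the annotated gene, which has another RefSeq start further in. The start of *Ahnak2* lies 6915 bases from the nearest start in GENCODE vM1. Each is printed 5′ to 3′ on the strand of its gene, and capitals mark the GC box (GGGCGG or its reverse complement CCGCCC).
Sned1: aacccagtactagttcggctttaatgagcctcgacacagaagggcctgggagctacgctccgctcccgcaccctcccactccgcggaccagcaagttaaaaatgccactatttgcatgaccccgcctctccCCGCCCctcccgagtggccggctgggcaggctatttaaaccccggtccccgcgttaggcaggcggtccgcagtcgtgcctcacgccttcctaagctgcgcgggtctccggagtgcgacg
Tspan11: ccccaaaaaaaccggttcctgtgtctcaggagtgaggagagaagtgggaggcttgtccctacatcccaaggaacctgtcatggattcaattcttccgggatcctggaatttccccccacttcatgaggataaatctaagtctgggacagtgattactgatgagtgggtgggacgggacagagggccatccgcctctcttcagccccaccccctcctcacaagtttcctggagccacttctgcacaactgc
Ahnak2: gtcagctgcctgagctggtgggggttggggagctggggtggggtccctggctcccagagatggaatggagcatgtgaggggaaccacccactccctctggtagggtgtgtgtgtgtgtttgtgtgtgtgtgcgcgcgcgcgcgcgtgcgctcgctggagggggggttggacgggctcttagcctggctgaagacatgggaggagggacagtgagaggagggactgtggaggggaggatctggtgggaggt
Zfp423: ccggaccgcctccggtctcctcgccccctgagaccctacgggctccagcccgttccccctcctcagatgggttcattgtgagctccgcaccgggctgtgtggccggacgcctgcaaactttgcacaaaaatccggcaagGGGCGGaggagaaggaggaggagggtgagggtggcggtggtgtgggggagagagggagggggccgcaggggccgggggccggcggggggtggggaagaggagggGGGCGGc

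*Zfp423*, the member that was lower in AdKO, had 2 GC boxes in this window and *Sned1* had 1, whereas *Tspan11* and *Ahnak2* had none. Of all 26734 genes with a promoter there, 35.64% held a GC box in at least 1 such window, as did 14 of the 29 members (48.28%), and 32.97% of all 32536 windows held one. The core that TCF/LEF factors bind (CTTTGA or TCAAAG on either strand), searched because the study also worked with TCF7L2, a factor of this family, was in none of the 4 windows. It was in 13.89% of all windows, in at least 1 window of 15.91% of all genes and in 3 of the 29 members (*Fbln2*, *Sema3e* and *Tcf21*). The GC content of the 4 windows was 64.0%, 54.0%, 65.2% and 71.6%, beside a median of 52.4% over all promoters. The windows of *Postn*, which was also higher in AdKO, are not printed. They held no GC box and no TCF/LEF core, with a GC content of 52.0% and 40.4%.

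Levels were compared between genes per kilobase of merged exon, for the 15 members with a single row. *Dpt* was highest at a mean of 1887 CPM per kb, followed by *Igfbp4* at 695 CPM per kb, and their ranges over the 6 libraries (1455 to 2467 and 570 to 901) did not meet. *Lum* and *Igfbp6* came next at means of 178 and 157 CPM per kb, with overlapping ranges, and then *Thy1*, *Zfp423* and *Twist1* at 62.5, 53.2 and 52.9 CPM per kb, which overlapped as well. *Mfap5*, *Osr1*, *Meox2* and *Cd24a* lay between 8.29 and 28.1 CPM per kb. *Sned1* at 5.11 and *Tspan11* at 2.13 CPM per kb were low, and *Gsn* and *Fap* were lowest at 0.362 and 0.318 CPM per kb. The 21 members with several rows had a median total of 839 counts, beside 7964 for the 15 with a single row, so levels of the former may be too low. A single row need not hold the reads of all transcripts of a gene either. *Gsn* and *Fap*, for example, have 6 and 9 transcripts in GENCODE vM1, so their levels per kb may be too low as well.

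**Figure D4:**
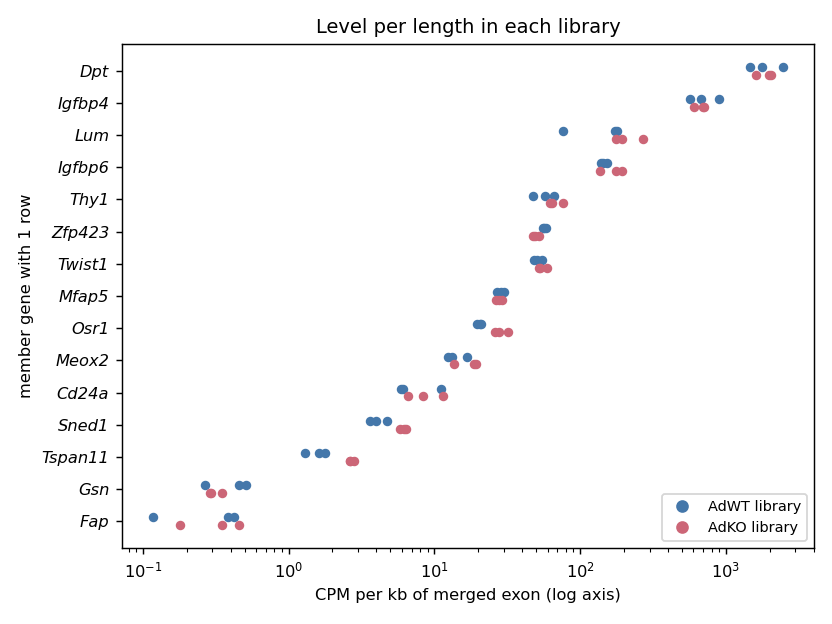
Level per kilobase of merged exon (x axis, CPM per kb, log axis) of the 15 members with a single row (y axis), with 1 point for each library, blue for AdWT and red for AdKO. Levels run from 0.318 CPM per kb for *Fap* to 1887 for *Dpt* on average, and *Osr1*, *Sned1* and *Tspan11* are the genes whose red points all lie to the right of the blue ones.

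The libraries of a group did not share 1 pattern over the members. The AdKO library of replicate 1 was the highest for 12 of the 32 members (37.5%, beside 14.2% of all rows tested), and the AdWT library of replicate 3 was the lowest for 13 (40.6%, beside 24.0%). The latter included *Dpp4*, *Lum*, *Fap*, *Osr1*, *Sned1*, *Ahnak2* and *Tspan11*, but *Dpt* and *Igfbp4* were highest there. The summed level of white adipocyte genes ran in the same order as *Dpt* and *Igfbp4* over the AdWT libraries (70894, 82370 and 88093 CPM) and was between 66691 and 71514 CPM in AdKO, of 9 genes with a row in a list of 12, with *Pnpla2* at 0. Of the 8 tested, 6 were lower in AdKO (median -0.24 on the log2 scale), and 2 of them, *Lep* (-0.46) and *Cd36* (-0.97), had an unadjusted *p* under 0.05. Its part in these values was not tested. The AdWT and AdKO libraries of replicate 3 also stood apart in epithelial and mesothelial genes, with summed levels of 25.1 and 62.3 CPM beside 2.09 to 3.09 CPM in the other 4. The AdWT library of replicate 1 held the most counts of the B cell genes *Cd79a* (86, beside 11 to 34 in the others) and *Ms4a1* (39, beside 0 to 15). *Cd24a*, which B cells and epithelia also express, was highest in the replicate 3 AdKO library and the replicate 1 AdWT library, at 20.9 and 20.3 CPM, and the part of these cells in its values was not tested. Without the AdWT library of replicate 3, the same number of members, 6, had an unadjusted *p* under 0.05, beside 4.90% of all rows. Without that of replicate 2, which held the most muscle, 5 did, all of them higher in AdKO, beside 3.20% of all rows. Without the AdWT library of replicate 1 there were 10, beside 11.8% of all rows.

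**Figure D5:**
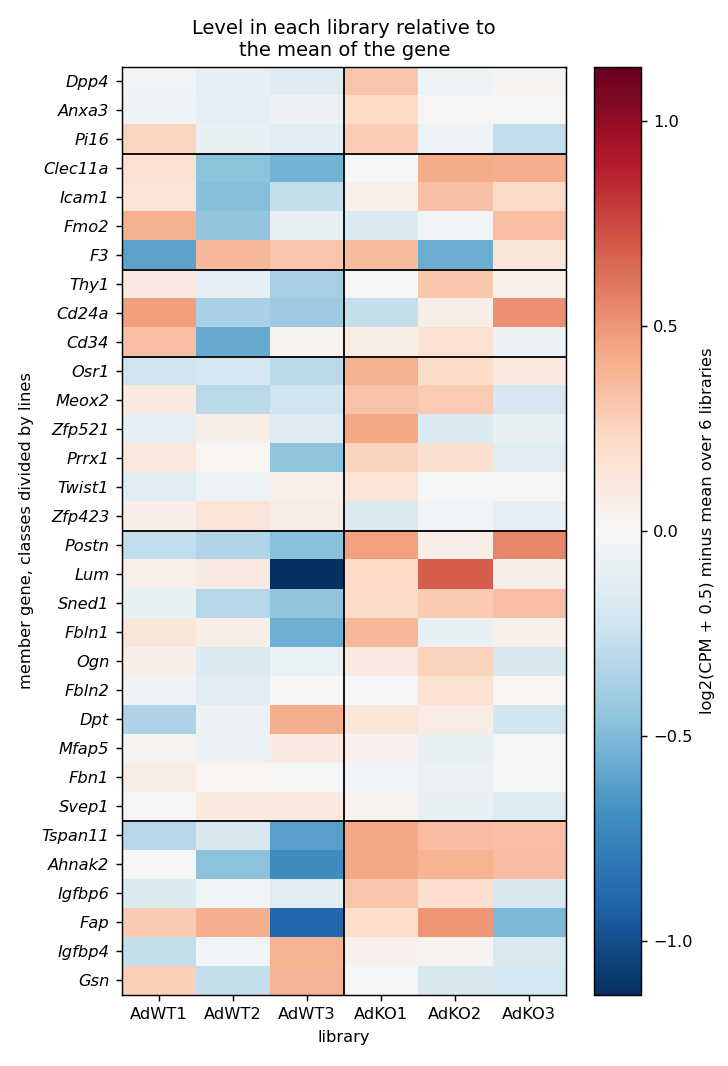
Difference of log2(CPM + 0.5) from the mean of the gene over the 6 libraries (colour) for the 32 members tested (y axis, classes divided by lines) in each library (x axis). *Lum* and *Fap* are lowest in AdWT3, the AdWT library of replicate 3, and *Osr1*, *Tspan11* and *Ahnak2* are above their mean in all 3 AdKO libraries.

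Other genes listed for progenitors or fibroblasts, which are not members, pointed in both directions. The progenitor list also holds genes that act in adipocytes, such as *Pparg*. Of 22 other progenitor genes, 13 were tested, of which 2 were higher in AdKO and 2 lower at an unadjusted *p* under 0.05, with a median log2 fold change of 0.00. *Sema3c*, a secreted semaphorin, had the smallest *p* of these genes, at 75.8 ± 9.55 CPM in AdWT and 47.8 ± 4.30 CPM in AdKO (SD, n = 3), a log2 fold change of -0.66 ± 0.11 SE (unadjusted *p* = 0.000502, adjusted *p* = 0.817). *Gpc3*, a surface proteoglycan, was also lower (-0.95) and *Cd9*, a tetraspanin, higher (0.40). Of 24 other fibroblast genes, 16 were tested, of which 4 were higher and 1 lower, with a median of 0.10. *Timp2*, an inhibitor of matrix metalloproteinases, was at 870 ± 99.0 CPM in AdWT and 1129 ± 81.8 CPM in AdKO (log2 fold change 0.38 ± 0.11 SE, adjusted *p* = 0.847). *Clec3b*, a plasminogen-binding lectin, and *S100a4*, a calcium-binding protein, were higher too (0.38 and 0.46). The summed level of the 17 other fibroblast genes with a row, of which *Vim* made up 46.1%, was 11108, 10669 and 11417 CPM in AdWT and 11445, 12357 and 11847 CPM in AdKO, with no overlap, but the groups overlapped with scaling by library size only. The sum over the 36 members with a row was 7136 ± 1103 CPM in AdWT and 7205 ± 676 CPM in AdKO, with overlap. Of 7 macrophage genes tested, 6 were higher in AdKO and 1 lower, with a median log2 fold change of 0.38, but none had an unadjusted *p* under 0.05. Their summed level was 1649, 1277 and 899 CPM in AdWT and 1466, 1759 and 1712 CPM in AdKO, 1.29-fold higher on average with overlapping groups. Their part in the members' values was not tested.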

How the data were processed

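Total RNA of iWAT was made into libraries with a stranded kit and sequenced, with 3 libraries labelled AdWT and 3 labelled AdKO. Alignment was to mm9 by HISAT2, and the values deposited by the authors are raw counts. The counting tool, and the treatment of reads that fit more than 1 row of a symbol, were not given in the sources used here. Counts were taken as deposited, with no column outside the 6 samples (0 left out).

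Counts were filtered with filterByExpr by group, scaled by TMM and compared with edgeR 4.0.16 (glmQLFit and glmQLFTest, R 4.3.3), with Benjamini-Hochberg adjustment over all 9872 rows tested and a threshold of 0.05. Standard errors were derived from the fold change and its F statistic. CPM values are TMM-scaled, and 0.5 was added before logs. A count of 0 was taken to allow 3 counts, which covers counting error only. No libraries were duplicates. The script was tested on simulated data. DESeq2 1.42.0, other scalings and filters, a robust fit, a replicate block, summed rows and the omission of each library were alternatives. Gene coordinates and exon lengths are from GENCODE vM1 (NCBIM37, the assembly of mm9), and all 40 members matched by symbol.

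Members and lists were chosen with earlier results of these data known. All members were accounted for. *Pdgfra*, *Dpp4*, *Pi16*, *Icam1*, *F3*, the members with an unadjusted *p* under 0.05 and the 3 highest and 3 lowest log2 fold changes got full values, and at most 3 genes of each other list were named for their log2 fold change. Lists of endothelial, mural, lymphocyte, Schwann cell and epithelial genes had no gene with an unadjusted *p* under 0.05. Figures were drawn with matplotlib 3.10.9.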

Additional observations from a re-analysis of the deposited data

How the results depend on the processing

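*Postn*, *Clec11a*, *Gsn* and *Fap* had few counts, which limits the precision of their values. Under DESeq2 with its defaults 27 rows and 3 members were called, without Cook's cutoff and independent filtering 13 rows and 1 member, and with the filter of at least 1 count in any library 1 row and no member. With a fold change over 1.5 added, 3 members remained at an unadjusted *p* under 0.05, beside 2.16% of all rows. Leaving out each library in turn gave 0 to 1 rows called, 329 to 1208 rows and 5 to 10 members at an unadjusted *p* under 0.05, a median of 0.10 to 0.25 for all members, of 0.073 to 0.20 for the interstitial progenitor genes, of 0.13 to 0.49 for the committed preadipocyte genes and of 0.037 to 0.20 for the matrix genes. The cause of these shifts was not tested.

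Scaling by library size only moved the median of all rows to 0.05 and the members to 27 higher and 5 lower, and reversed *Pi16* (0.014), *F3* (0.0039), *Dpt* (0.032) and *Mfap5* (0.0076). Leaving out a library also reversed members, whose log2 fold changes with all libraries lay between -0.08 (*Igfbp4*) and 0.20 (*Zfp521*). The log2 fold change ranged from -0.19 to 0.11 for *Pi16*, from -0.31 to 0.16 for *F3*, from -0.14 to 0.40 for *Fmo2*, from -0.14 to 0.33 for *Cd34*, from -0.054 to 0.55 for *Cd24a*, from -0.088 to 0.34 for *Zfp521*, from -0.18 to 0.21 for *Dpt*, from -0.31 to 0.38 for *Fap* and from -0.22 to 0.11 for *Igfbp4*. Of the results for single members under all alternatives, 485 kept their direction and side of the threshold, 4 passed it newly at the adjusted level and 21 reversed.

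The groups share replicate numbers, and deviations of same-numbered libraries correlated at -0.10, -0.12 and 0.35. Only the libraries of replicate 3 correlated best with their own number. With 3 libraries in each group, these correlations cannot show whether same-numbered libraries were paired. With the replicate number as a block, 7 members had an unadjusted *p* under 0.05, none was called, 418 rows had an unadjusted *p* under 0.05, and *Dpt* reversed (0.010).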
